A study of Mus musculus with 3 samples.

Results

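The genes described here encode the chaperones that fold proteins in the cytosol and in mitochondria, with their partner proteins and the transcription factors that control them. They were chosen by name from a list of 38 genes, and all 38 were found among the 55536 genes of the GENCODE M21 annotation (mouse assembly mm10). The list was divided into 8 stress-inducible chaperones, 7 constitutive ones, the 8 subunits of the cytosolic chaperonin, 4 mitochondrial chaperones, 9 co-chaperones and 2 heat shock factors. The rule used gene names and no measured value, but the genes and their classes were chosen with earlier results of these data known.

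Polyadenylated RNA was sequenced from inflammation-experienced regulatory T cells (Tregs), primary cells of an adult male mouse aged 6 months from the strain Foxp3CreERT2 x Rosa26YFP. Tregs are the CD4 lineage that holds immune responses in check. In this strain a tamoxifen-activated Cre recombinase is expressed from Foxp3, the lineage factor of Tregs, and a yellow fluorescent reporter sits at Rosa26. The labels give 1 group with 1 biological replicate, measured as 3 technical replicates that are called libraries 1, 2 and 3 here, so no condition can be compared with another and every p-value measures the spread between these libraries alone.

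Molecular chaperones bind unfolded or partly folded proteins. HSP70 proteins clamp short hydrophobic stretches in a cycle of ATP binding and release, HSP40 (J-domain) proteins hand them substrates and start ATP hydrolysis, and nucleotide exchange factors such as HSP110 and BAG proteins let them go. HSP90 takes over late folding intermediates such as kinases and steroid receptors, while the barrel-shaped chaperonins enclose a whole chain, actin and tubulin being classic substrates of the cytosolic one. Heat shock factor 1 (Hsf1) raises the inducible members when unfolded proteins accumulate, by binding inverted repeats of the unit GAA before their start sites.

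Sequence before the start sites is shown first, because the inducible class is known for this element. A RefSeq table of promoters (GRCm38.p6, the same assembly as mm10) matched 30 of the 38 genes with 39 windows, and the 250 bases before each start were searched for GAANNTTC and TTCNNGAA, each of which reads the same on both strands. At least 1 of these motifs lay before 13 of the 30 genes (43.3%), against 14.5% of the 27025 genes in the whole table. By class, 5 of 7 inducible genes held one, as did 2 of 3 mitochondrial, 2 of 5 constitutive, 2 of 7 chaperonin and 2 of 7 co-chaperone genes, and the window of Hsf2 held none. The longer forms, GAANNTTC extended by NNGAA and TTCNNGAA extended by NNTTC, are reverse complements of each other and contain the shorter motifs. They lay before Hspd1, Hspe1 and Dnajb6 and before 0.514% of all genes. Hspd1 and Hspe1 face away from each other and their windows share 215 bases, so they hold 1 element between them. A match is a description of the letters and shows no binding. The windows of the HSP70 pair Hspa1a (chr17:34972157-34972406, minus strand) and Hspa1b (chr17:34959239-34959488, minus strand) are printed because these near-identical genes are the textbook heat shock genes, and that of Dnajb1 (chr8:83607925-83608174, plus strand) because it is an inducible gene with no match in this window. Capitals mark the motif, 5′ to 3′ on the gene's strand.
Hspa1a: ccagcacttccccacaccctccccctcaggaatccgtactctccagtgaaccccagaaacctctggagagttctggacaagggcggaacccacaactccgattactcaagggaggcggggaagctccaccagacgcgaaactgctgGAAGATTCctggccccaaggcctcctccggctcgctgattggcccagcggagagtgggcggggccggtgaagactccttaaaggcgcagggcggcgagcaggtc
Hspa1b: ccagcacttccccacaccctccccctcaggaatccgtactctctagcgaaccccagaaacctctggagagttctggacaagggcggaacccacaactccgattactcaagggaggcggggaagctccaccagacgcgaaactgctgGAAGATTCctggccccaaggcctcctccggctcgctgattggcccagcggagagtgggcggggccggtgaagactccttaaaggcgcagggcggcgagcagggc
Dnajb1: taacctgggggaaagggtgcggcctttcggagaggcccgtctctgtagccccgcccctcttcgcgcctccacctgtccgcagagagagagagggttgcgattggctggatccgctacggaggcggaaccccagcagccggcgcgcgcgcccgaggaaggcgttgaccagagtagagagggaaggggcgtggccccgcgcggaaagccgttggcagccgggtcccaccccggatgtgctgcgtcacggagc
The windows of Hspa1a and Hspa1b differed at 3 of 250 bases (98.8% identity), and the motif began 104 bases before the start in both. Stretches of 30 bases around the motif follow for Hsph1 (chr5:149636351-149636380, minus strand), Dnajb4 (chr3:152193846-152193875, minus strand) and Hspb1 (chr5:135887811-135887840, plus strand), which complete the inducible genes with a match, and for Hspe1 (chr1:55088053-55088082, plus strand) and Dnajb6 (chr5:29735843-29735872, plus strand), which carry the longer forms.
Hsph1: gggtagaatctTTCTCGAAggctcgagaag
Dnajb4: gttcgttcgttcgctgTTCTAGAAagtaca
Hspb1: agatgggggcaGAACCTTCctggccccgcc
Hspe1: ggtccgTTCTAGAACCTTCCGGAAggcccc
Dnajb6: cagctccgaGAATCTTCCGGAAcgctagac
In the stretch before Hspe1, 3 overlapping matches make an unbroken run of 18 bases, and in that before Dnajb6 2 overlapping matches make a run of 13.

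Chaperone mRNA was abundant, with 1 constitutive gene ahead of all others. Levels are given in TPM (a transcript abundance scaled to transcript length and library depth), which allows genes to be compared within a library. Detection meant a level of at least 1 TPM in every library, which held for 36 of the 38 (not Hspa1b and Hspb1), against 22.5% of all 55536 genes. The 38 genes summed to 8514, 7840 and 7198 TPM in libraries 1, 2 and 3, or 0.859%, 0.790% and 0.727% of all gene TPM. Hspa8 alone made up 35.0%, 33.2% and 31.8% of that sum. The median of the mean levels was 5.62 TPM in the inducible class, against 151 in the constitutive class, 242 in the chaperonin, 98.8 in the mitochondrial class, 103 among co-chaperones and 19.9 for the heat shock factors. In bulk RNA, fewer cells of a type and less RNA per cell cannot be told apart. The median of all 38 was 114 TPM, and that of the 12470 genes so detected was 15.6 TPM.

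**Figure D1:**
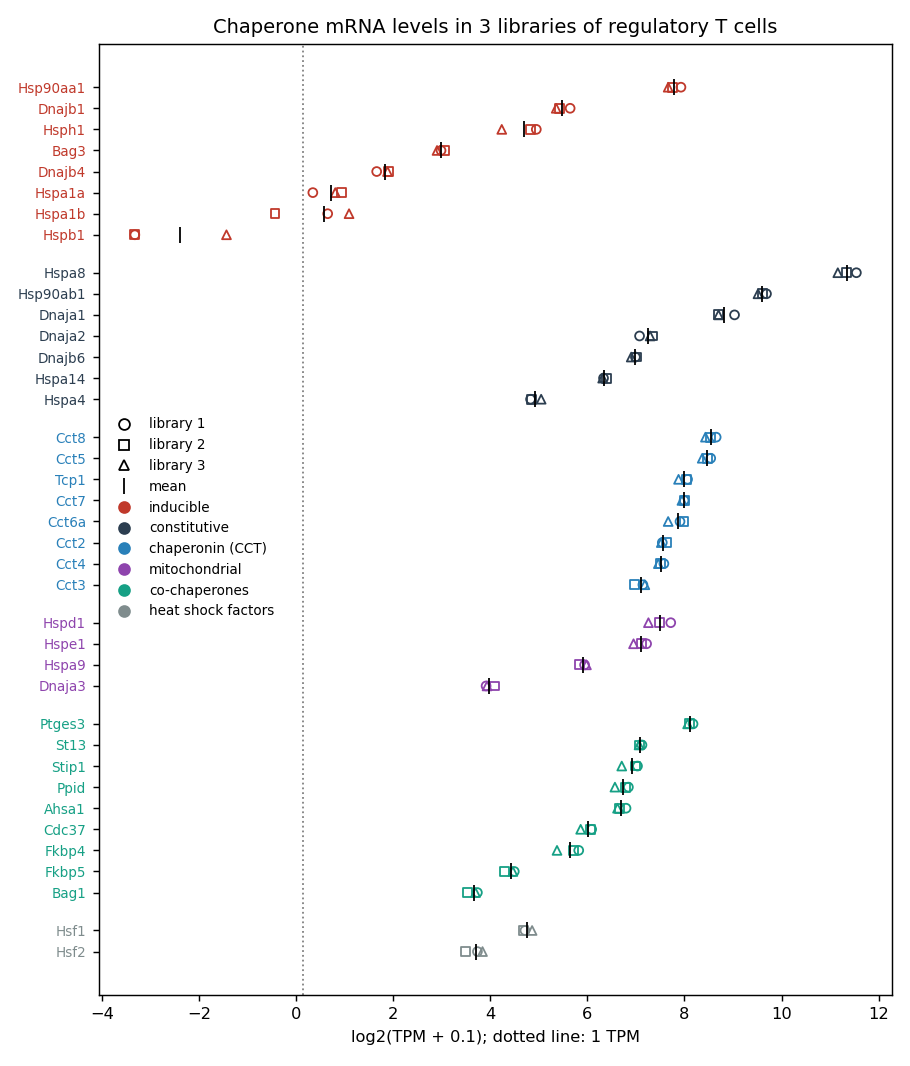
Level of each chaperone gene as log2(TPM + 0.1), by class and by mean level within a class; open symbols are the 3 libraries and the black tick is the log2 of their mean plus 0.1. Hspa8 lies far to the right at 2286 to 2981 TPM, the 8 chaperonin genes lie close together, and the inducible genes spread from Hspb1, listed at 0 TPM in 2 libraries, to Hsp90aa1 at 203 TPM or more.

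The inducible class was split, with Hsp90aa1 high and Hspa1a, Hspa1b and Hspb1 near or under the limit of detection. Dnajb1, Hsph1, Bag3 and Dnajb4 lay between them. Hspa1a (chr17:34969190-34972156) stood at 1.17, 1.81 and 1.65 TPM in libraries 1, 2 and 3, from 31.0, 57.6 and 39.9 estimated counts. Hspa1b (chr17:34956436-34959238) stood at 1.47, 0.64 and 2.03 TPM, from 36.7, 19.2 and 46.3 estimated counts. Hspa1a was lowest in library 1 and Hspa1b in library 2, so that the order of the pair changed between libraries. Summed, the pair held 2.64, 2.45 and 3.68 TPM. Reads of these near-identical genes can be split either way by the counting model, and the posterior SD of the Hspa1b count in the authors' tables was 5.06, 5.08 and 7.69 reads. The test called Hspa1b different between libraries (Poisson chi-square, adjusted p = 0.000538), whereas the summed counts of the pair, chosen after the values were seen, gave p = 0.0581.

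Hspb1, which encodes the small heat shock protein HSP25, was listed at 0, 0 and 0.27 TPM. It had 0, 0 and 1.89 estimated counts, and a count of 0 allows up to 3 counts, or 0.254 CPM (counts scaled to library depth) in library 1 and 0.212 CPM in library 2. It was not detectable at this depth in those libraries. Dnajb4, an HSP40, stood at 3.06, 3.66 and 3.59 TPM, and Bag3, a co-chaperone of HSP70 in selective autophagy, at 7.82, 8.23 and 7.38 TPM. Their scaled counts varied by 1.38-fold and 1.17-fold between libraries, and neither passed the test.

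The other inducible genes were well expressed and were lowest in library 3. Hsp90aa1, the stress-responsive cytosolic HSP90, held 243, 216 and 203 TPM. Dnajb1, the main partner of HSP70 in the heat shock response, held 49.9, 42.7 and 40.9 TPM. Hsph1, the inducible HSP110, held 30.8, 28.3 and 18.8 TPM. All 3 genes were highest in library 1, and the gap between library 3 and the others was widest for Hsph1.

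Constitutive chaperones were led by Hspa8 (chr9:40800984-40810087), the HSC70 of protein folding and clathrin uncoating, with 2981, 2603 and 2286 TPM. Its mean of 2623 TPM (SD 347, n = 3) was rank 43 among all genes. Hsp90ab1, the constitutive HSP90, held 826, 782 and 732 TPM. Both were highest in library 1 and lowest in library 3. Dnaja1, an HSP40 that works with HSC70, held 523, 418 and 416 TPM, and its relative Dnaja2 held 135, 161 and 157 TPM. Library 1 thus had the highest value of Dnaja1 and the lowest of Dnaja2. Dnajb6, an HSP40 that keeps aggregation-prone proteins soluble, held 127, 129.6 and 119.6 TPM. Hspa14, an HSP70 found at ribosomes, held 80.5, 84.2 and 79.5 TPM, and Hspa4, an HSP110, held 28.3, 28.8 and 33.0 TPM. Hspa4 alone in this class was highest in library 3.

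All 8 subunit genes of the cytosolic chaperonin (CCT or TRiC), whose proteins occupy fixed places in each ring of the complex, were expressed within a narrow range. The highest were Cct8 with 402, 370.4 and 345 TPM and Cct5 with 372, 354.5 and 329.9 TPM. The lowest were Cct4 with 191, 183 and 176 TPM and Cct3 with 141, 125 and 145 TPM. The highest subunit exceeded the lowest by 2.85-fold, 2.97-fold and 2.38-fold within libraries 1, 2 and 3. Between these ends lay Tcp1 (267, 264 and 235 TPM), Cct7 (255, 256 and 247 TPM), Cct6a (240.2, 254 and 203 TPM) and Cct2 (186, 197 and 184 TPM). Tcp1 and Cct7 changed places between libraries, as did Cct2 and Cct4, so those neighbours did not differ beyond their spread.

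In the mitochondrial class Hspd1 (HSP60) and its lid Hspe1 (HSP10), transcribed in opposite directions from a shared region, stood highest. Hspd1 held 210.4, 179.5 and 153 TPM, and Hspe1 held 149, 139 and 124 TPM. Both were highest in library 1 and lowest in library 3. Hspa9, the mitochondrial HSP70 (mortalin), held 61.4, 56.9 and 63.0 TPM, and Dnaja3, its HSP40 partner, held 15.0, 16.8 and 15.2 TPM. Neither had the order of libraries seen in Hspd1 and Hspe1.

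Among the co-chaperones, Ptges3 (p23), which stabilises the closed form of HSP90, led with 289, 276 and 268 TPM. St13 (HIP) followed with 139, 135 and 134 TPM, ahead of Stip1 (HOP), the adaptor that joins HSP70 to HSP90, with 131, 127 and 104 TPM. Stip1 was lower than St13 in all 3 libraries, and most clearly in library 3. The HSP90 activator Ahsa1 held 111, 100.6 and 98.4 TPM and the cyclophilin Ppid held 115, 109.6 and 94.8 TPM. Cdc37, which brings kinases to HSP90, held 67.9, 67.0 and 58.1 TPM. All 3 were lowest in library 3. The immunophilin Fkbp4 held 56.5, 52.4 and 41.4 TPM, while its glucocorticoid-responsive relative Fkbp5 held 22.4, 19.5 and 22.0 TPM. Bag1, a nucleotide exchange factor, was the lowest with 13.2, 11.5 and 12.9 TPM. Fkbp5 and Bag1 were lowest in library 2.

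The heat shock factors were present at moderate levels. Hsf1 held 26.1, 25.7 and 29.0 TPM and Hsf2 held 13.2, 11.2 and 14.2 TPM. Both were highest in library 3 and lowest in library 2.

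Related genes were set against each other inside each library by subtracting values of log2(TPM + 0.1), a scale that understates differences at low levels. In 15 of 17 pairs the sign was the same in all 3 libraries, and the exact two-sided sign-flip permutation test gave its smallest possible p of 0.25, which 3 libraries cannot undercut. Hsp90ab1 exceeded Hsp90aa1 by 1.82 ± 0.05 (SD, n = 3 for all pairs), a 3.54-fold difference, and made up 77.2%, 78.4% and 78.3% of the cytosolic HSP90 TPM. Hspa8 exceeded Hspa1a by 10.65 ± 0.47 and Hspa1b by 10.91 ± 0.86, and in TPM it was 1129, 1063 and 621 times the sum of the pair. Hspa8 thus outnumbered the inducible HSP70 genes in every library, least in library 3.

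Within the HSP40 family Dnaja1 exceeded Dnaja2 by 1.58 ± 0.33 and the inducible Dnajb1 by 3.34 ± 0.05. Dnajb1 exceeded Dnajb4 by 3.66 ± 0.29. The order Dnaja1, Dnaja2, Dnajb1, Dnajb4 held in each library. In mitochondria Hspd1 exceeded Hspa9 by 1.57 ± 0.26, Hspe1 minus Hspd1 was -0.39 ± 0.10, and Dnaja3 minus Hspa9 was -1.94 ± 0.17. Fkbp4 exceeded Fkbp5 by 1.22 ± 0.27, Bag1 exceeded Bag3 by 0.67 ± 0.17, and Hsf1 exceeded Hsf2 by 1.06 ± 0.11. Ahsa1 minus Hsp90ab1, the chaperone it activates, was -2.91 ± 0.04, the smallest spread of the 17 pairs. Stip1 minus St13 was -0.18 ± 0.15 and Cct6a minus Tcp1 was -0.14 ± 0.08. Pairs without a fixed sign were Hspa1b minus Hspa1a (-0.26 ± 0.96) and Hspa4 minus Hsph1 (0.24 ± 0.50), where Hsph1 was the higher in library 1 and Hspa4 in libraries 2 and 3. Whole-number CPM, which are not adjusted for length, turned the sign of 6 pairs, among them Dnaja1 minus Dnaja2 (-1.78) and Hspd1 minus Hspa9 (-0.27).

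Ordered by mean TPM, 22 of the 37 pairs of neighbours among the 38 genes kept their order in every library. The first 6 steps down from Hspa8, through Hsp90ab1, Dnaja1, Cct8, Cct5 and Ptges3 to Tcp1, were among these. From Tcp1 down to St13 most neighbours changed places at least once. At the low end, Bag1, Bag3, Dnajb4 and Hspa1a held a fixed order.

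Counts of most chaperone genes differed between the 3 libraries beyond counting noise, by small factors. The Poisson chi-square test with Benjamini-Hochberg adjustment over 13970 genes called 27 of the 37 chaperone genes tested, against 45.7% of all genes. The test gains power with depth, so genes were also divided at a mean of 1000 counts. At or above it 21 of 24 chaperone genes (87.5%) were called, against 71.6% of 2585 genes. Below it 6 of 13 (46.2%) were called, against 39.8% of 11385 genes. In 25 of the 27 the highest library exceeded the lowest by under 1.5-fold in scaled counts, the others being Hsph1 (1.54-fold) and Hspa1b (3.04-fold). No chaperone gene was called once edgeR's common dispersion of all genes between libraries (coefficient of variation 16.9%) was added to the counting noise, a setting that called 460 genes (3.29%) in all. At an unadjusted p under 0.05 in that setting 1 of the 37 passed, against 1256 of all 13970 genes. Without library 3, the test called 12 of the 37, against 21.3% of all genes.

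The lowest library was mostly library 3 among chaperone genes with many counts, but not among those with fewer. In scaled CPM 26 of the 37 were lowest in library 3, whether called or not, against 37.3% of all tested genes. At a mean of 1000 counts or more this held for 22 of 24 (91.7%), against 56.8% of all such genes, and below it for 4 of 13 (30.8%), against 32.8%. Genes both called and lowest in library 3 were 23 of the 37 (62.2%), against 19.5% of all tested genes. As a share of called genes these were 23 of 27 (85.2%), against 42.5% over all called genes. At a mean of 1000 counts or more, 20 of 24 (83.3%) were both called and lowest in library 3, against 44.3% of all such genes. Below it 3 of 13 were (23.1%), against 13.8%. As shares of called genes these were 95.2% against 61.8%, and 50% against 34.7%. All 8 chaperonin genes were lowest there, 7 of them called, with Cct3 the exception (1.03-fold from highest to lowest). In the constitutive class this held for 5 of 7, among co-chaperones for 7 of 9, among inducible genes for 4 of 7, in the mitochondrial class for 2 of 4 (Hspd1 and Hspe1), and for neither heat shock factor. The median difference of log2 scaled CPM between library 3 and the mean of libraries 1 and 2 was -0.16 over the tested chaperone genes, against 0.00 over all tested genes. At a mean of 1000 counts or more it was -0.17, against -0.07 over all such genes, and below that 0.05, against 0.04. In TPM, which also takes up each library's effective lengths, Cct3 was instead highest in library 3. Its retained-intron transcript Cct3-203 of 472 bases took 16.4%, 2.35% and 19.4% of that TPM in libraries 1, 2 and 3. The TPM of its protein-coding transcripts was lowest in library 3, at 111, 116 and 109.

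The genes with the widest gaps came from several classes. On the same log2 scale Hsph1 fell by 0.57 in library 3, Fkbp4 fell by 0.40, Stip1 fell by 0.35, Hspd1 fell by 0.34, Hspa8 fell by 0.34 and Cct6a fell by 0.29. Chi-square values per degree of freedom, for which counting noise alone gives a mean of 1, were 731 for Hspa8, 91.8 for Hsp90ab1, 79.7 for Dnaja1, 71.0 for Hspd1 and 47.6 for Hsp90aa1. They were between 10 and 40 for 14 others, namely Stip1, Cct6a, Cct5, Hsph1, Cct8, Tcp1, Fkbp4, Dnaja2, Cct7, Dnajb1, Cct4, Dnajb6, Cct2 and Ptges3. Hspa4 (0.23 higher in library 3), Hsf2 (0.23), Hspa1b (0.97) and Dnaja2 (0.06) were called with another lowest library. The genes not called were Hspa1a, Dnajb4, Bag3, Cct3, Hspa9, Dnaja3, St13, Bag1, Fkbp5 and Hsf1, and Hspb1 was under the limit of a mean of 10 counts.

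**Figure D2:**
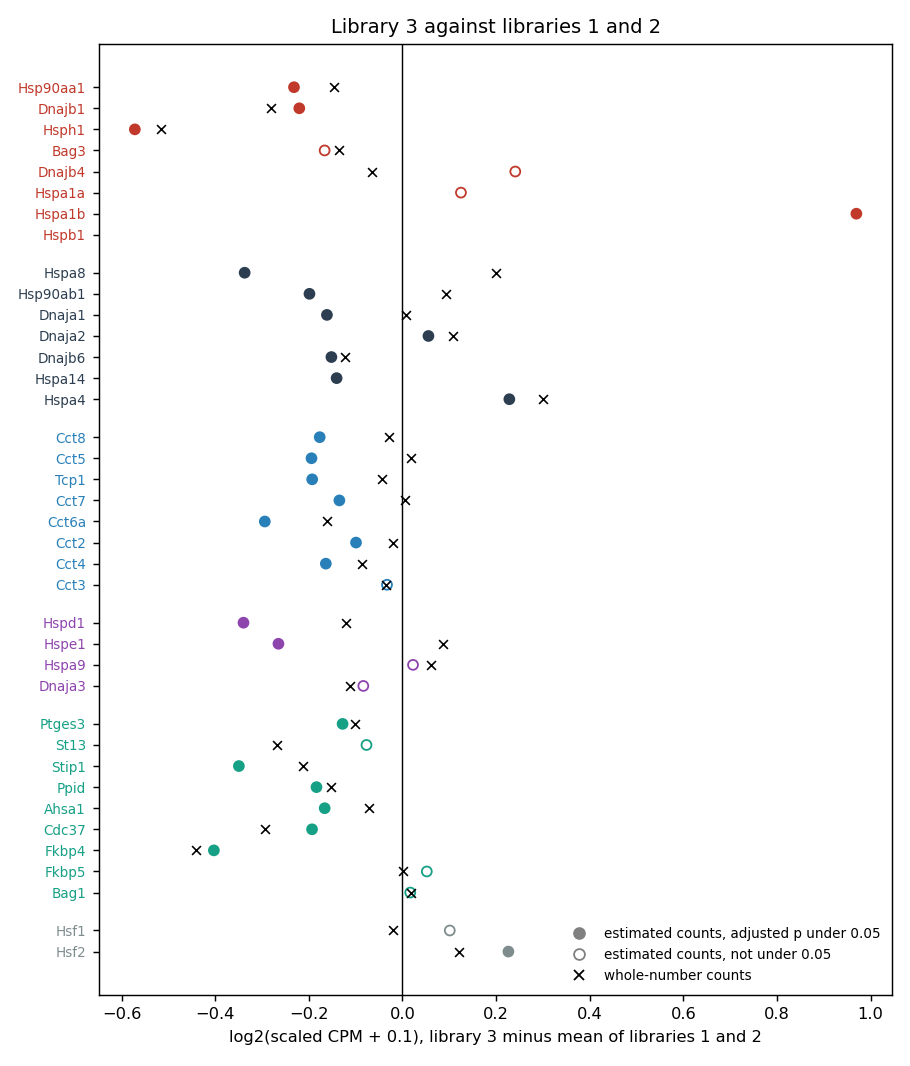
Difference of log2(scaled CPM + 0.1) between library 3 and the mean of libraries 1 and 2 for each chaperone gene, in estimated counts (circles, filled where the adjusted p is under 0.05) and in whole-number counts (crosses). Most circles lie left of 0, Hsph1 at -0.57, while Hspa1b lies at 0.97; the crosses of Hspa8, Hsp90ab1 and Hspe1 lie right of 0.

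Other lists also differed between the libraries. A list of 20 proliferation genes such as Mki67, Top2a and Pcna was lowest in library 3 in 20 of 20 cases, with a median log2 difference of -0.65 and summed levels of 4298, 3899 and 2798 TPM in libraries 1, 2 and 3. Of 15 immediate-early genes tested, which respond fast to stimulation, 12 were called and 9 were highest in library 3, among them Dusp1 (1.13 higher on the log2 scale), Fos (0.90), Jun (0.83) and Junb (0.66), while 4 were lowest there. The summed level of 7 erythroid markers was 4.83, 51.2 and 287 TPM, with Hba-a2 and Slc4a1 at 0 in library 1 and Car1 at 0 in libraries 1 and 2. That of 12 B cell markers was 880, 1335 and 1612 TPM, with none at 0. Library 2 had the highest sum of 10 myeloid markers, at 10.9, 61.3 and 25.9 TPM. Fcgr1 was at 0 in library 1 and C1qa at 0 in library 3. Library 2 also had the highest sum of 9 NK and CD8 markers, at 50.02, 96.9 and 58.5 TPM, with none at 0. In scaled CPM 5 of the 8 tested were highest in library 2, and Cd8a, Cd8b1 and Klrb1c in library 3. Sums were 0.89, 16.02 and 3.34 TPM for 8 neutrophil markers and 4.67, 4.73 and 6.00 TPM for 8 stromal markers. For 6 plasma cell markers they were 40.5, 58.9 and 58.4 TPM, of which Xbp1 made up 38.9, 35.8 and 30.3 TPM. Jchain stood at 0.99, 19.5 and 22.3 TPM and Sdc1 at 0.58, 0.24 and 0.11 TPM. Mzb1, Tnfrsf17 and Prg2 were at 0 in library 1. The part of all these differences in the chaperone values was not tested.

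The whole-number counts, a second deposited table on an older annotation (GENCODE M4), gave fewer calls and less of a common direction. There 11 of 34 chaperone genes tested were called, against 21.6% of all genes, and 19 of 34 were lowest in library 3, against 36.9% of all genes. Hspa8, Hsp90ab1, Dnaja1 and Hspe1 were instead lowest in library 2 in that table, as were Cct5, Cct7 and Cct8. Dnajb6 moved from lowest in library 3 to lowest in library 1. None of the 6 constitutive genes tested was lowest in library 3. Hsph1, Fkbp4, Stip1, Cdc37, Dnajb1 and Cct6a were called and lowest in library 3 in both tables, and Hspa4 was called and lowest in library 1 in both. Hspa8, Hsp90ab1 and Cct8 were also called in both tables but with different lowest libraries. In whole-number counts the log2 difference of library 3 was 0.20 for Hspa8, 0.09 for Hsp90ab1 and -0.03 for Cct8, against -0.34, -0.20 and -0.18 in estimated counts.

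Several chaperone genes drew on more than 1 transcript, and a few were led by transcripts annotated as non-coding. In 35 of the 38 genes the leading transcript, that with the largest mean share of the gene's TPM, was protein coding. Of Hspa4, Hspa4-202, a short retained-intron transcript, took 48.9% ± 2.9 of the TPM (SD, n = 3 for all shares), and protein-coding transcripts took 32.0% ± 2.2. Of Cct8, Cct8-209, annotated as a target of nonsense-mediated decay, took 28.3% ± 1.9, and protein-coding transcripts together took 70.2% ± 1.5. Cct6a is annotated as a processed transcript gene in GENCODE M21, so that its leading Cct6a-202 (43.0% ± 3.5) and all its other transcripts carry non-coding labels there.

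Leading transcripts with less than 60% of the TPM but with a coding label were found in several other genes. Hspa8-202 took 46.0% ± 1.2 and Dnaja1-205 took 38.3% ± 1.5. In the chaperonin, Tcp1-201 took 54.3% ± 1.7, Cct4-201 took 45.1% ± 1.5 and Cct7-201 took 36.7% ± 2.5. Hsph1-211 took 37.0% ± 4.5. Hsf1-205 took 42.9% ± 10.9, a share that was 55.2% in library 1, 38.4% in library 2 and 35.0% in library 3. As posterior mean shares in the authors' tables the values were 28.4% ± 6.1 for Hsf1-205 and 30.7% ± 3.3 for Hsph1-211. Among these genes the spread between libraries was widest in Hsf1, a gene with 16 annotated transcripts. The choice of genes depends on the measure. Bag1-201 took 100% and Dnajb4-202 took 81.6% of the TPM, but as posterior mean shares they took 56.25% and 43.2%, under the 60% limit. Counting protein-coding transcripts only, the 7 chaperonin genes other than Cct6a ranged from 112 TPM (Cct3) to 344 TPM (Cct5), a 3.07-fold range, against 2.72-fold over the gene levels of all 8.

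**Figure D3:**
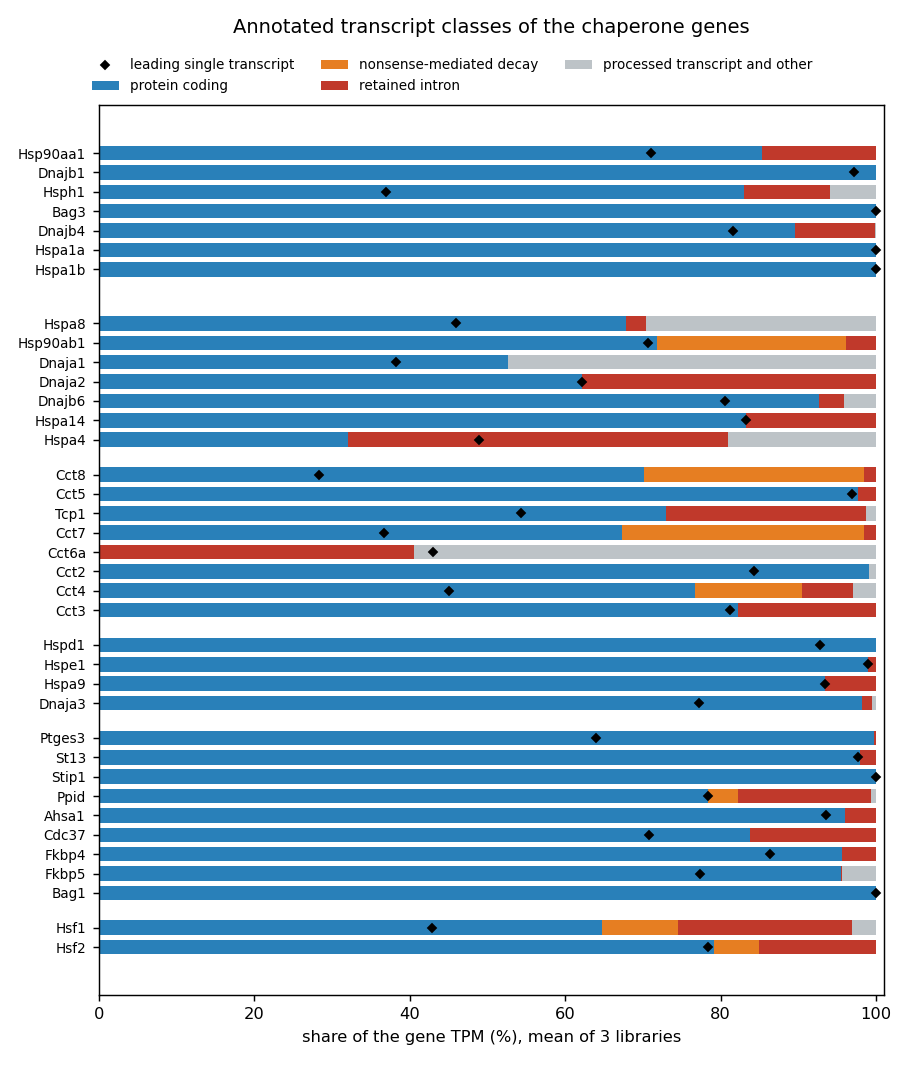
Share of each gene's TPM in annotated transcript classes (bars, mean of 3 libraries) and in its leading single transcript (diamonds); Hspb1 is left out because of its near-absent counts. The protein-coding share has a median of 87.5% over the 38 genes and reaches 90% in 18 of them, whereas Cct6a has no coding part and Hspa4 has 48.9% in a retained-intron transcript.

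Much chaperone sequence occurs more than once in the transcript annotation, mainly in processed pseudogenes, and the deposited count tables differed for such genes. Of the 50-base words of the leading Hspa8 transcript 84.4% also occurred in another gene's transcripts, in 11 genes that were all pseudogenes, Gm15459 first. The share was 83.2% for Dnaja1, 65.6% for Hsp90aa1, 44.8% for Hspd1, 41.9% for Dnajb6 and 36.1% for Hspe1. Hspa1a and Hspa1b shared 60.3% and 62.3% of their words with other genes, chiefly with each other. Hspb1 shared 58.9% with the pseudogene Hsp25-ps1. By contrast the leading transcripts of 16 of the 38 genes, among them Hsph1, Cct2, Cct5 and Cct8, shared no word. Other transcripts of a gene were not searched. For Hspa4 the search thus covered the 630 bases of Hspa4-202 and not the coding Hspa4-201 of 4618 bases.

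Whole-number counts were low beside estimated counts where words were shared. For 9 genes that share 30% of their words or more, the whole-number count was a median of 7.38% of the estimated count (range 1.37 to 26.9%). For the 27 genes under that share the median was 49.1% (range 0.558 to 76.4%), and over the 11369 genes in both tables with a mean of 10 estimated counts or more it was 40.7%. Hspa8 had 561, 539 and 550 whole-number counts, against 43550, 46235 and 30630 estimated counts in libraries 1, 2 and 3. Across these 36 genes Spearman's rho was -0.60, a description over genes of the same libraries. Ptges3, with 19.7% of its words shared, had the lowest ratio, at 24, 28 and 21 whole-number counts against 4373, 5014 and 3695 estimated counts. St13, Fkbp5 and Hsf2 were also low with almost no shared words. The annotations of the tables differ in version as well, and the part of each was not tested. Of 16 pseudogenes named after these genes, 1 reached 10 estimated counts in every library, Hspd1-ps3 with 40.6, 52.9 and 40.7 counts. Pseudogenes under other names, such as Gm15459 for Hspa8 and Gm15542 for Dnaja1, are not among the 16, and their counts are not given here.

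**Figure D4:**
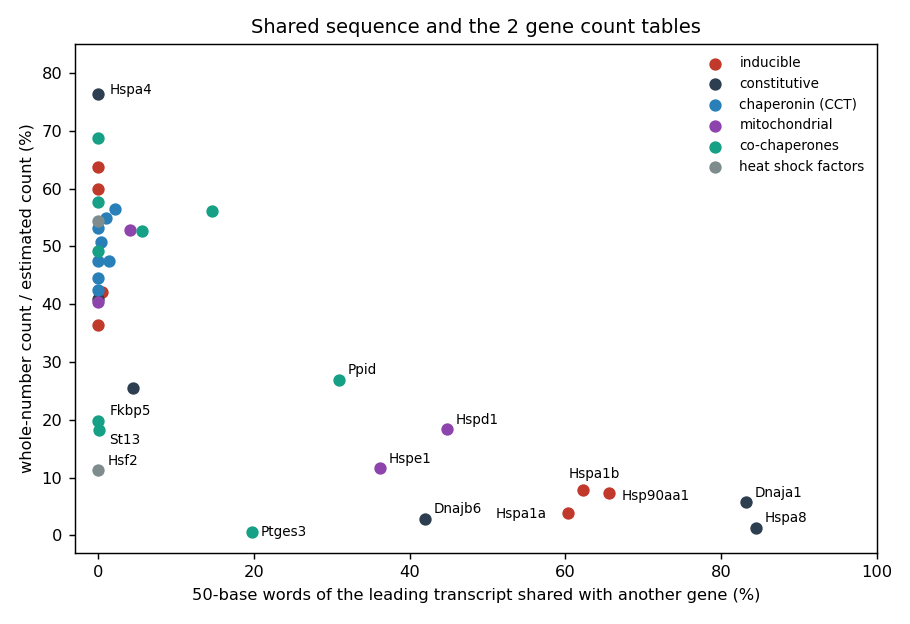
Whole-number count as a percent of the estimated count, summed over the 3 libraries (vertical axis), against the percent of 50-base words of the leading transcript that occur in another gene (horizontal axis), 1 point per chaperone gene in the colour of its class. Hspa8, Dnaja1 and Hsp90aa1 lie at the lower right, and Hspa4 at 76.4% tops the column of genes without shared words in the leading transcript.

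Overlap with other genes also limits some values, since the strand setting of the counting is not given in the sources used here. Dnaja3 shares 39789 bases with the opposite-strand gene Coro7, which held 3310, 3045 and 2420 estimated counts beside 334, 446 and 314 for Dnaja3. Hspd1 and Hspe1 overlap by 112 bases, Tcp1 overlaps Mrpl18 by 645 bases and Dnaja1 overlaps Smu1 by 608 bases, each on opposite strands. Hspa1a overlaps Gm20481 on the opposite strand by 2225 bases, and Hspa14 shares its strand with Gm45902 over 8264 bases.

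The remaining genes of the pathway, 81 in 7 lists drawn up by family, had a lower median. Of these 66 were detected, at a median of 24.2 TPM over all 81, and 26 of 66 tested (39.4%) were called between libraries, against 45.7% of all genes. Of the 26, 15 (57.7%) were lowest in library 3, against 42.5% over all called genes. In the HSP70 and HSP110 list 3 of 6 were detected, led by Hspa4l (32.5 ± 6.5 TPM), Hspa13 (12.1 ± 2.0) and Hspa2 (4.93 ± 0.33), while the spermatid gene Hspa1l averaged 0.02 TPM, and Hspa12a and Hspa12b averaged 0.62 and 0.13 TPM. Hspa4l, an HSP110 like Hsph1, fell by 0.45 on the log2 scale in library 3 (Poisson chi-square, adjusted p = 1.78e-11). On the list of 9 small heat shock genes 3 were detected, Cryab (2.91 TPM), Hspb6 (2.14) and Hspb11 (22.0). Hspb11 is a member by name only. Hspb3, Hspb8 and the lens crystallin Cryaa were listed at 0 TPM in all libraries.

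Larger families were broadly expressed. In the HSP40 list 21 of 23 genes were detected, led by Dnajc7 (263 ± 39.5 TPM), Dnajc8 (252 ± 7.0) and Dnajc15 (134 ± 7.3), with the testis gene Dnajb8 listed at 0 and Dnajc28 at 0.43 TPM on average. The prefoldin and chaperonin-partner list had 9 of 10 detected. It was led by Pfdn5 (819 ± 122 TPM), Pdcl3 (157 ± 5.1) and Vbp1 (133 ± 4.9), and the testis chaperonin gene Cct6b, a paralogue of Cct6a, averaged 0.29 TPM. Pfdn5, a prefoldin subunit that delivers chains to the chaperonin, was called and was 0.30 higher in library 3 on the log2 scale. The other called genes of that list, Pfdn4 and Vbp1, fell by 0.46 and by 0.13 in library 3, and 5 of its 9 tested genes were lowest there. All 8 further mitochondrial genes were detected, led by the protease subunit Clpp, the mitochondrial HSP90 Trap1 and Hscb, with 49.9 ± 0.8, 47.2 ± 6.6 and 38.2 ± 4.2 TPM. All 22 further co-chaperones were detected as well, led by Sugt1, Hsbp1 and Chordc1 with 169.8 ± 8.9, 158 ± 6.2 and 131 ± 11.8 TPM. None of Hsf3, Hsf4 and Hsf5 was detected, with means of 0, 0.23 and 0.23 TPM.

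The depth on genes was 11829501, 14136139 and 10667765 estimated counts by library, and 2988262, 3386154 and 2734873 whole-number counts. All 10 Treg markers were detected, Foxp3 itself at 16.1 ± 1.9 TPM (SD, n = 3). Of the 10, 9 were called between libraries, against 45.7% of all genes. Library 2 was the lowest for 7 of the 10, against 4337 of all 13970 genes tested. Their summed level was 4411, 4031 and 4705 TPM in libraries 1, 2 and 3. The markers of erythroid and B cells above were lowest in library 1 in 5 of 5 and 11 of 12 genes tested. They were highest in library 3 in 5 of 5 and 9 of 12.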

How the data were processed

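The 38 genes, their classes and the other lists were chosen with earlier results of these data known. Gene and transcript tables held estimated counts with a posterior SD (a signal in reads), TPM and the percent of the gene's TPM per transcript, in the RSEM column layout, per the file headers; multi-mapped reads are shared by a model there. A further table held whole-number counts per gene, as deposited. A further marker gene is not reported here. The assembly is mm10, per the labels; for the aligner, read length and strand setting the sources used here give nothing. Nothing says that the technical replicates came from separate animals.

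As edgeR's quasi-likelihood test compares groups and there is 1 here, it was not run. Estimated counts were rounded, and each of 13970 genes averaging at least 10 counts was tested between libraries (Poisson chi-square, homogeneity), scaled by TMM (edgeR 4.0.16, R 4.3.3; factors 0.994, 0.976 and 1.03), at a Benjamini-Hochberg adjusted p of 0.05. Reads are treated as independent, so p-values and floors cover counting error only. The test was checked on simulated counts with counting noise only, so that check does not cover any further spread between libraries. Related genes were compared on log2(TPM + 0.1). Values per library are given for all inducible genes, the highest and lowest 2 of each other class, strongly differing genes and all pairs; the other genes were added. Sharing was counted over 50-base words of each gene's leading transcript, searched in the GENCODE M21 transcripts of other genes. Alternatives were DESeq2 size factors (1.42.0), total counts, no filter, whole-number counts, added posterior or common spread, CPM, posterior mean TPM and shares, and leaving out each library.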

Additional observations from a re-analysis of the deposited data

How the results depend on the processing

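With DESeq2 size factors, total counts, no filter on low counts or the posterior SD added, the numbers of chaperone genes and of all genes called stayed within 1.5 times those reported (24 to 27 chaperone genes, 5690 to 7055 genes). Whole-number counts called 11 chaperone genes and 2155 genes, and the added common dispersion called 0 and 460. Leaving out 1 library gave 12 to 23 chaperone genes and 2978 to 4765 genes, the lowest without library 3; the cause was not tested. Chaperone genes lowest in library 3 numbered 22 to 26 of 37 under the scalings of estimated counts tried, and 19 of 34 in whole-number counts. Over all genes tested the share was 37.3% with TMM and 36.9% in whole-number counts.

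Without length adjustment, in CPM, the class medians were 11.0 (inducible), 228 (constitutive), 284 (chaperonin) and 33.1 (heat shock factors), and as posterior mean TPM they were 130 (constitutive), 211 (chaperonin), 85.3 (mitochondrial) and 89.2 (co-chaperones). Pair differences reversed in whole-number CPM for Hspa1b minus Hspa1a (1.31), Dnaja1 minus Dnaja2 (-1.78), Dnaja1 minus Dnajb1 (-0.64), Hspd1 minus Hspa9 (-0.27), Bag1 minus Bag3 (-0.13) and Stip1 minus St13 (0.69). In CPM they reversed for Hspa4 minus Hsph1 (-0.036) and Bag1 minus Bag3 (-0.33). Leaving out 1 library gave -0.54 to 0.29 for Hspa1b minus Hspa1a, positive without library 2, and -0.045 to 0.42 for Hspa4 minus Hsph1, negative without library 3. No paired analysis was possible because there is only 1 group. Depth limits Hspa1a, Hspa1b, Hspb1 and Dnajb4, each with fewer than 110 counts per library.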
